A study of Arabidopsis thaliana with 6 samples.

Results

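The GH3 genes described here are the 8 Arabidopsis thaliana loci GH3.1 (AT2G14960), GH3.2 (AT4G37390), GH3.3 (AT2G23170), GH3.4 (AT1G59500), GH3.5 (AT4G27260), GH3.6 (AT5G54510), GH3.9 (AT2G47750) and GH3.17 (AT1G28130). They were taken by locus identifier, and all 8 were among the 38194 genes of the deposited table. Poly(A) RNA was sequenced from whole seedlings harvested on day 7 after stratification. The wild type, Col-0, and a line that carries an RNA interference construct (genotype sqtl1 RNAi, also labelled Col-0) had 3 biological replicates each. Both groups were grown with 16 h of light and 8 h of dark at 22 °C on MS medium with sucrose, and the labels name no other treatment. No source used here gives the promoter of the construct, the identifier of the locus it targets or the number of independent lines. The knockdown was therefore not checked, and sh1, the name under which the RNAi samples are listed, is not explained. Values are RPKM, by definition the reads of a gene scaled by its length and by the library size, so that levels can be compared between genes. The deposited values did not sum alike, as RPKM times length came to between 926820 and 1071469 per library. No source used here states the scaling step, so the library size used is not known.

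GH3 enzymes join an amino acid to a small acid hormone. The members described here act on the auxin indole-3-acetic acid (IAA). IAA conjugated to aspartate or glutamate is largely inactive and can be oxidised, so these enzymes lower the amount of free auxin. Several GH3 genes are themselves switched on by auxin within minutes through auxin response factors (ARFs), which makes them a negative feedback on the hormone and a common readout of auxin response. GH3.17 favours glutamate and is known from work on hypocotyl and root growth, whereas GH3.2 to GH3.6 mainly make the aspartate conjugate. GH3.5, also called WES1, accepts salicylic acid as well, and GH3.6 is also known as DFL1 from a mutant that is dwarfed in the light.

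The loci lie on 4 chromosomes (coordinates of TAIR10.1). GH3.1 is at chr2:6451319-6453797, GH3.3 at chr2:9863855-9866562 and GH3.9 at chr2:19560127-19563960. GH3.2 is at chr4:17579618-17582022 and GH3.5 at chr4:13653579-13656285. GH3.4 is at chr1:21854493-21856614, GH3.17 at chr1:9825169-9828118 and GH3.6 at chr5:22130964-22133688. The longest annotated transcript has 3 exons in GH3.1 to GH3.6 and 4 exons in GH3.9 and GH3.17. Its length equalled the gene length in the deposited table for all 8 loci, from 1.794 kb for GH3.4 to 2.924 kb for GH3.9. The annotated transcript of GH3.4 holds 1794 bases, all of them coding, so its model carries no UTR.

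The closest coding sequences were those of GH3.2, GH3.3 and GH3.4, and of the pair GH3.5 and GH3.6. GH3.2 and GH3.4 shared 90.9% of aligned bases, GH3.5 and GH3.6 84.1%, GH3.2 and GH3.3 81.4%, and GH3.3 and GH3.4 79.1%. GH3.9 and GH3.17 shared 65.9% with each other, less than the 73.2% of GH3.1 and GH3.2. The deposited column headed as a weighted multi-mapping ratio, which the file does not explain further, was 0 for all 8 loci.

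The 250 bases before the annotated start are shown for the GH3 gene with the largest change, GH3.3, for its close relative GH3.2, and for the pair GH3.5 and GH3.6, from the RefSeq TAIR10.1 genome in the direction of the gene. They lie at chr2:9866563-9866812 (minus strand), chr4:17579368-17579617 (plus strand), chr4:13653329-13653578 (plus strand) and chr5:22133689-22133938 (minus strand). Capitals mark TGTCTC, the classical auxin response element to which ARFs bind, and TGACGT, the core of sites for TGA-type bZIP factors, which was added after the sequences had been seen.
GH3.3: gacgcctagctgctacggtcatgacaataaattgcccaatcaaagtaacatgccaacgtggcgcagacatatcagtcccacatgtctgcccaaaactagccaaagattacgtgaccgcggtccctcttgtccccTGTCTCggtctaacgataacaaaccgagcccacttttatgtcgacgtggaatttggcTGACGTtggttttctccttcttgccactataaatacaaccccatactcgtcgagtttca
GH3.2: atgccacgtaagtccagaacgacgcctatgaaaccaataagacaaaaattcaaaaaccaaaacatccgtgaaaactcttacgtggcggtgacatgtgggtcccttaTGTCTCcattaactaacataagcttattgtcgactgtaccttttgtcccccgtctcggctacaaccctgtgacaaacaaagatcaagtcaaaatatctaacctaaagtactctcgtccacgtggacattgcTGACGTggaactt
GH3.5: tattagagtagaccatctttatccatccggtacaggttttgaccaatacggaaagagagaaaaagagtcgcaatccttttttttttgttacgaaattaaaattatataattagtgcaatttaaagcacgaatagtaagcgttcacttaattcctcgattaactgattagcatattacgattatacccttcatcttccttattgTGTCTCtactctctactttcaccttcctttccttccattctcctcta
GH3.6: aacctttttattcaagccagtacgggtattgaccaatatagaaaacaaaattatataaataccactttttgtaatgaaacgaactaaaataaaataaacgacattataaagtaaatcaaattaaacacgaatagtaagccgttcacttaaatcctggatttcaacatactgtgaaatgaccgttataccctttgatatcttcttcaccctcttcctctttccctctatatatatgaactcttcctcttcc

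TGTCTC, searched on both strands, stood 116 bases before the start of GH3.3, 144 before GH3.2 and 47 before GH3.5. These are the 3 of 8 loci with a match in this window, where 10.95% of 27443 nuclear protein-coding genes have one. GH3.6 had no match even within 1000 bases, where 39.62% of genes have one and 6 of the 8 loci did. TGACGT was found in the 250 bases before GH3.1, GH3.2, GH3.3 and GH3.4, at 82, 13, 59 and 108 bases before the start, against 7.69% of genes. TGTCGG, a second ARF-binding sequence, was in the 250 bases of none of the 8 loci and of 4.16% of genes. TGTCTC and TGTCGG share their first 4 letters and cannot lie at the same position. A match is a description of letters and not a site shown to be bound.

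In Col-0 seedlings GH3.17 was the most abundant of these mRNAs, at 30.5 ± 1.49 RPKM (SD, n = 3 here and below). GH3.6 followed at 21.8 ± 1.195, GH3.5 at 11.6 ± 0.556, GH3.2 at 7.62 ± 0.502 and GH3.3 at 4.197 ± 0.203 RPKM. The ranges of neighbours in this order did not overlap. GH3.1, at 1.09 ± 0.253, and GH3.9, at 0.847 ± 0.150 RPKM, overlapped each other. GH3.4 was listed at 0 RPKM in all 6 libraries. A count of 3 in a library, taken as the floor for a gene with no read, corresponds to between 0.0165 and 0.0232 RPKM for GH3.4, a limit that covers counting error only.

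The order was different in the RNAi line. GH3.6 stood first at 31.3 ± 5.31 RPKM, followed by GH3.17 at 25.5 ± 1.34, GH3.3 at 23.9 ± 6.55 and GH3.5 at 21.8 ± 3.81. The ranges of these 4 overlapped from each to the next, so their order was not resolved. GH3.2 lay below them at 10.4 ± 4.09 RPKM, then GH3.1 at 1.05 ± 0.103 and GH3.9 at 0.563 ± 0.0351.

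**Figure D1:**
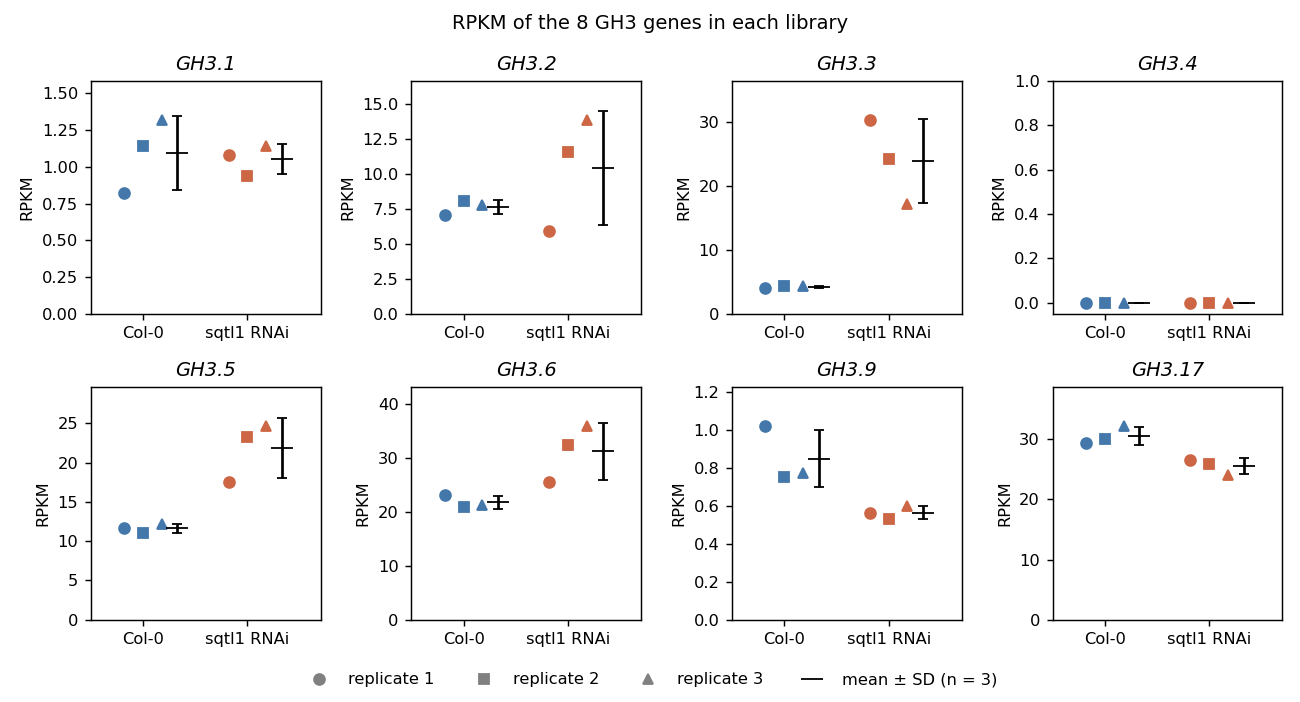
RPKM of each GH3 gene (y axis, a separate scale per panel) in the 3 Col-0 (blue) and 3 sqtl1 RNAi (orange) libraries, with symbols for the replicate number and black bars for the mean ± SD. GH3.3, GH3.5 and GH3.6 are higher in all 3 RNAi libraries, GH3.9 and GH3.17 are lower in all 3, and GH3.4 is at 0 throughout.

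The groups were compared with limma on log2(RPKM + 1) for the 19458 genes whose mean over the 6 libraries was 1 RPKM or more, with Benjamini-Hochberg adjustment over all of them. Log2 fold changes are the RNAi mean minus the Col-0 mean on that scale, which understates changes of low genes, and ratios are between group means of RPKM. Of the 8 GH3 genes, 6 passed the filter, GH3.9 and GH3.4 being below it. Of these 6, GH3.3, GH3.5 and GH3.6 were higher in the RNAi line, GH3.17 was lower, and GH3.1 and GH3.2 did not pass at an adjusted p under 0.05. Over all genes tested, 25.2% were higher and 27.5% lower by the same test, 52.6% in all, so a call as such is common in these data. The median log2 fold change was 0.41 over the 6 GH3 genes and -0.008 over all genes tested.

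The largest difference was that of GH3.3, one of the auxin-induced members. Its values were 3.97, 4.36 and 4.26 RPKM in Col-0 replicates 1 to 3 and 30.3, 24.1 and 17.2 RPKM in RNAi replicates 1 to 3. All 3 RNAi libraries lay far above the Col-0 range. GH3.3 rose 5.70-fold, with a log2 fold change of 2.23 (SE 0.18, limma adjusted p = 0.000362). A log2 fold change at least this large was found for 92 of the genes tested, or 0.473%.

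GH3.5 and GH3.6, the pair of similar sequence, rose by less. GH3.5 was at 11.7, 11.1 and 12.2 RPKM in Col-0 and at 17.5, 23.3 and 24.6 RPKM in the RNAi line. The groups did not overlap, and the increase was 1.87-fold (log2 fold change 0.84, SE 0.12, limma adjusted p = 0.0022). GH3.6 was at 23.2, 20.9 and 21.3 RPKM in Col-0 and at 25.5, 32.4 and 36.0 RPKM in the RNAi line. Its RNAi replicate 1 lay only just above the highest Col-0 value. The increase of GH3.6 was 1.44-fold (log2 fold change 0.49, SE 0.12, limma adjusted p = 0.0153). This call was lost without Col-0 replicate 2, without Col-0 replicate 3 or without RNAi replicate 2 (limma adjusted p = 0.0566, 0.0554 and 0.0558), and with no filter on low values (0.0543).

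GH3.2, which also encodes an IAA-conjugating enzyme, overlapped between groups. It was at 7.06, 8.03 and 7.77 RPKM in Col-0 and at 5.88, 11.5 and 13.8 RPKM in the RNAi line. RNAi replicate 1 lay below every Col-0 library and the other 2 above. The log2 fold change was 0.33 (SE 0.27, limma adjusted p = 0.333). Without RNAi replicate 1 it was 0.66 (SE 0.09, limma adjusted p = 0.00154), so that library decides the call. GH3.1 was at 0.82, 1.14 and 1.32 RPKM in Col-0 and at 1.08, 0.94 and 1.14 RPKM in the RNAi line, with a log2 fold change of -0.02 (SE 0.11, limma adjusted p = 0.88).

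GH3.17, the glutamate-preferring enzyme, was at 29.4, 30.0 and 32.2 RPKM in Col-0 and at 26.6, 25.8 and 24.0 RPKM in the RNAi line. The ranges did not overlap. GH3.17 was 1.198-fold lower (log2 fold change -0.25, SE 0.06, limma adjusted p = 0.013). The call was lost without Col-0 replicate 3 (limma adjusted p = 0.0557). It was also lost when each library was rescaled to an equal sum of RPKM times gene length (log2 fold change -0.09, limma adjusted p = 0.319). That scaling moved the log2 fold change of the median gene by 0.149, to a median of 0.136 over all genes, and the share of calls that were higher from 47.8% to 68.8%. Under it 3 GH3 genes were higher and 0 lower.

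GH3.9, a member studied for its part in primary root growth, was at 1.02, 0.75 and 0.77 RPKM in Col-0 and at 0.56, 0.53 and 0.60 RPKM in the RNAi line. All 3 RNAi values lay below the Col-0 range, 1.503-fold lower by the group means. Of the genes tested, 33% likewise did not overlap with the RNAi line lower, 31.1% did not with it higher, and 64.1% did not in either direction. With no filter on low values GH3.9 had a log2 fold change of -0.24 (SE 0.06, limma adjusted p = 0.0518). An exact two-sided permutation test gave p = 0.1, the smallest that 3 against 3 libraries allow. Groups that do not overlap always give this value, so it adds nothing here, and GH3.3, GH3.5, GH3.6 and GH3.17 had it too.

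**Figure D2:**
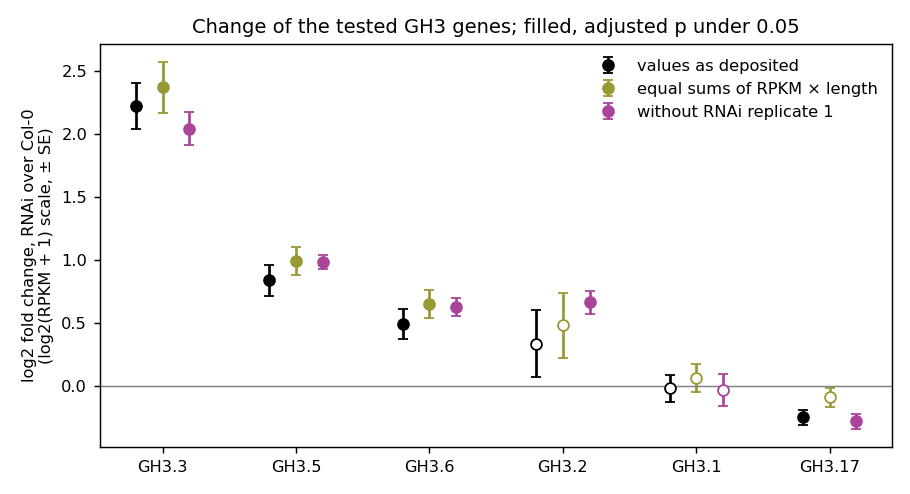
Log2 fold change, RNAi over Col-0 on the log2(RPKM + 1) scale ± SE (y axis), of the 6 GH3 genes tested (x axis), from the values as deposited (black), after rescaling to equal sums of RPKM times length (olive) and without RNAi replicate 1 (purple). Filled points have an adjusted p under 0.05: GH3.3, GH3.5 and GH3.6 are filled in all 3 settings, GH3.2 is filled without RNAi replicate 1, and GH3.17 is open after rescaling.

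The composition of the family's mRNA differed between the groups. The 8 genes summed to 77.1, 76.3 and 79.8 RPKM in the Col-0 libraries and to 107.5, 118.6 and 117.5 RPKM in the RNAi libraries. Every RNAi sum exceeded every Col-0 sum. GH3.17 made up 39.2 ± 1.13% of the sum in Col-0 and 22.3 ± 2.21% in RNAi seedlings. GH3.3 made up 5.401 ± 0.287% in Col-0 and 21.1 ± 6.81% in RNAi seedlings. GH3.6 held 28.1 ± 1.77% and 27.2 ± 3.44%, shares that overlap, and GH3.5 held 14.97 ± 0.404% and 18.9 ± 2.44%. The ratio of GH3.3 to GH3.17 RPKM lay between 0.132 and 0.145 in Col-0 and between 0.718 and 1.14 in the RNAi line. These sums and shares are descriptions and were not tested.

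**Figure D3:**
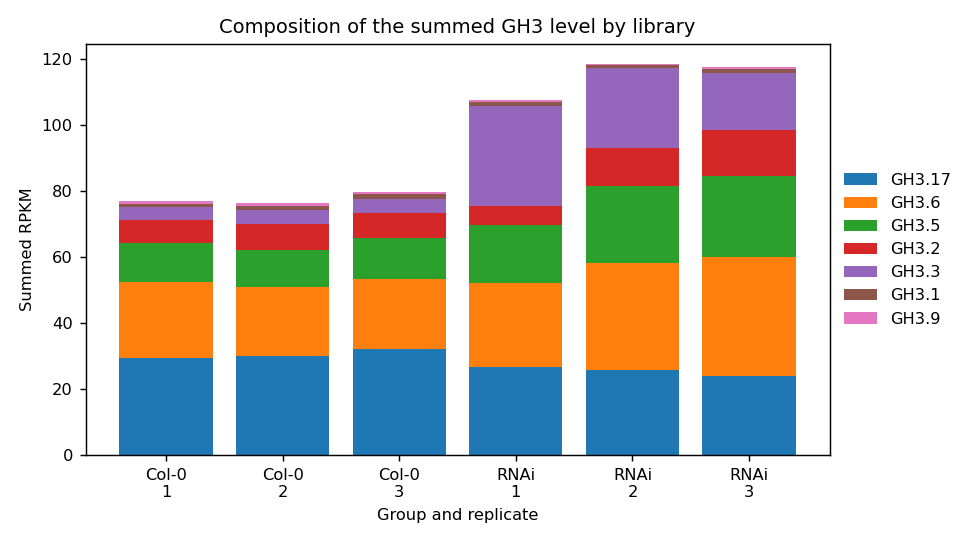
Summed RPKM of the GH3 genes (y axis) in each of the 6 libraries (x axis), stacked by gene. GH3.4 is at 0 and adds nothing. The Col-0 bars reach between 76.3 and 79.8 RPKM and the RNAi bars between 107.5 and 118.6 RPKM, with a wider GH3.3 segment in each RNAi library.

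The RNAi libraries did not rank alike for all GH3 genes. RNAi replicate 1 had the highest GH3.3 level and the lowest levels of GH3.2, GH3.5 and GH3.6, and RNAi replicate 3 the reverse. Against the Col-0 mean of log2(RPKM + 1), GH3.3 stood at 2.59, 2.27 and 1.81 in RNAi replicates 1 to 3. GH3.5 stood at 0.55, 0.94 and 1.02 in the same libraries, and GH3.2 at -0.32, 0.54 and 0.79. Among the 4894 genes called higher, 54.9% were highest in RNAi replicate 1 and lowest in replicate 3, as GH3.3 was, and 9.99% were highest in replicate 3 and lowest in replicate 1, as GH3.5 and GH3.6 were. GH3.17 stood at -0.19, -0.23 and -0.33. It was lowest in replicate 3, an order (highest in replicate 1, lowest in replicate 3) found for 10.9% of the 5346 genes called lower.

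**Figure D4:**
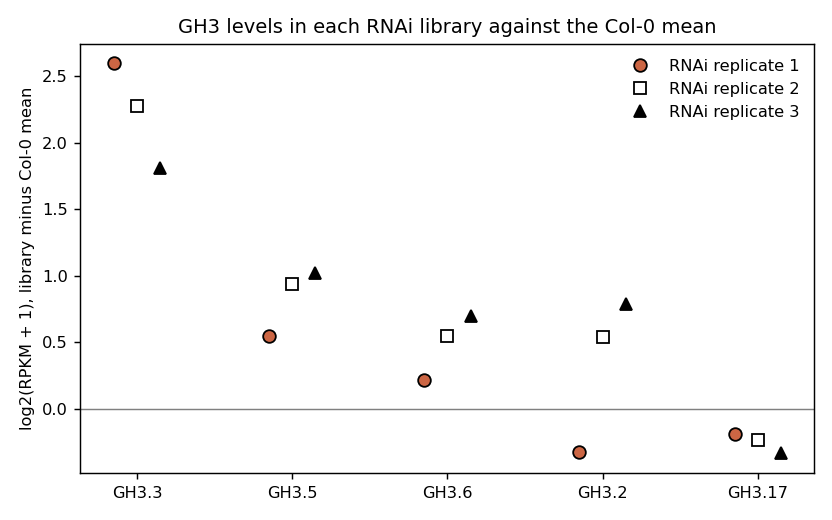
Difference of log2(RPKM + 1) from the Col-0 mean (y axis) for 5 GH3 genes (x axis) in RNAi replicate 1 (orange circle), 2 (open square) and 3 (black triangle). Replicate 1 is the highest for GH3.3 and the lowest for GH3.5, GH3.6 and GH3.2, where GH3.2 lies below the Col-0 mean.

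Across the 6 libraries, log2(RPKM + 1) of GH3.5 and GH3.6 had a Pearson r of 0.969, and GH3.2 had 0.795 with GH3.6 and 0.273 with GH3.3. GH3.17 had -0.938 with GH3.6. The libraries form 2 groups, so these coefficients largely carry the group difference. By the same measure the tested genes outside the family most like GH3.3 were MIA40, AT3G20710, annotated as an F-box family protein, and AT1G12830, annotated as a nucleolin (r = 0.9998, 0.9997 and 0.9997). In all, 2805 tested genes had an r over 0.95 with GH3.3. Those most like GH3.17 were the myosin gene XIB, AT4G22230, annotated as a defensin-like protein, and HHP1 (r = 0.9917, 0.9911 and 0.9891), and 202 genes exceeded 0.95.

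The other GH3 family genes moved in both directions. Of 11 in the table, 6 passed the filter, of which 4 were higher and 2 lower. Beside the counts of this list and of those below stand the shares over all genes tested, 25.2% higher and 27.5% lower. JAR1, which conjugates jasmonate to isoleucine, was 1.27-fold lower, at 23.5 ± 0.429 against 18.6 ± 0.896 RPKM (limma adjusted p = 0.00258). DFL2, a family member named for a mutant with an altered response to light, fell 2.14-fold, from 5.73 ± 0.530 to 2.67 ± 0.250 RPKM (limma adjusted p = 0.00057). AT1G48660, annotated as a GH3 family protein, was at 0.18, 0.07 and 0.11 RPKM in Col-0 and at 8.92, 5.79 and 1.67 RPKM in the RNAi line. It passed the filter through its RNAi values, which differ widely from each other (log2 fold change 2.33, SE 0.45, limma adjusted p = 0.00548). AT5G13360 was 1.51-fold higher (log2 fold change 0.52, limma adjusted p = 0.0113). PBS3, which acts in salicylic acid synthesis, reached at most 0.18 RPKM. The number of higher genes in this list was 2 without Col-0 replicate 3 and likewise 2 when RNAi replicate 2 was left out. With equal sums of RPKM times length JAR1 was not called (log2 fold change -0.17, limma adjusted p = 0.0528).

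Genes that make auxin, or act on it or its conjugates, were called in both directions. Of 14 synthesis genes of the TAA1 and YUC families, 6 were tested, with 1 higher, 2 lower and a median of -0.04 on the log2 fold change scale. TAA1, the aminotransferase of the first step, was at 8.85 ± 0.521 RPKM in Col-0 and 11.2 ± 1.23 in RNAi seedlings, 1.26-fold higher (limma adjusted p = 0.0226), a call lost without Col-0 replicate 2 or 3. TAR2, a relative of TAA1, fell 1.36-fold and YUC9, a monooxygenase of the second step, 2.48-fold (limma adjusted p = 0.00381 and 0.00196). YUC9 passed the filter through its Col-0 values. With no filter on low values, YUC1, YUC4 and YUC7 were also higher (limma adjusted p = 0.00308, 0.00297 and 0.0318) and YUC3 and YUC5 lower (0.0427 and 0.00764). TAA1 was then not called (0.06), so that 3 synthesis genes were higher and 4 lower, of 14 tested. In that setting 5028 of all 36235 genes tested were higher and 5085 lower, a smaller share than with the filter. Of 13 genes for conjugate hydrolases, IAA oxidation, glucosylation and methylation, 10 were tested, with 2 higher, 1 lower and a median of -0.08. The hydrolase gene IAR3, which releases IAA from alanine conjugates, was 1.14-fold higher (limma adjusted p = 0.048), and the glucosyltransferase gene UGT74D1 1.38-fold (limma adjusted p = 0.0213). IAMT1, which methylates IAA, was 1.26-fold lower (limma adjusted p = 0.0271). The higher count of this list was 0 without any 1 of the Col-0 replicates or RNAi replicate 2 and 1 without RNAi replicate 1. Its lower count was 0 without Col-0 replicate 2, Col-0 replicate 3 or RNAi replicate 2, and 3 and 2 without RNAi replicates 1 and 3.

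Among the genes of auxin perception, 3 of 6 TIR1/AFB receptor genes were higher and 1 lower (median 0.14 on the log2 scale), where 52.6% of all genes tested were called. The higher count was 1 without any 1 of the Col-0 replicates or RNAi replicate 2. The lower count was 0 without Col-0 replicate 1, Col-0 replicate 3, RNAi replicate 1 or RNAi replicate 2. With equal sums of RPKM times length 5 receptor genes were higher and 0 lower, where 7741 of 19471 genes tested were higher and 3505 lower. With a replicate block 1 receptor gene was higher and 0 lower, where 4272 of 19458 genes were higher and 4762 lower. Among the 3 called higher from the values as deposited, the increase was largest in GRH1, also called AFB1, at 1.22-fold (limma adjusted p = 0.0251). Of 6 ARF genes, 3 were higher and 1 lower, and NPH4 and ARF19 were not called (limma adjusted p = 0.182 and 0.349). In Arabidopsis hypocotyls, ARF6 and ARF8 are known as activators, and ARF17 as a repressor, of GH3.3, GH3.5 and GH3.6. Whether the ARF levels bear on the GH3 levels in these seedlings was not tested. ARF6 was at 13.8 ± 0.974 RPKM in Col-0 and 21.7 ± 1.204 in RNAi seedlings, and ARF8 at 6.90 ± 0.232 and 9.61 ± 0.821 (limma adjusted p = 0.000808 and 0.00315). ARF17 was lower, at 5.15 ± 0.282 against 4.09 ± 0.0757 RPKM (limma adjusted p = 0.00795). With equal sums of RPKM times length ARF17 was not called (log2 fold change -0.14, limma adjusted p = 0.102). In that setting 5 ARF genes were higher and 0 lower, beside the counts over all genes given above for it. MP, the activating factor ARF5, rose 2.07-fold (limma adjusted p = 0.000267).

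Of 9 auxin-induced Aux/IAA genes, which encode repressors of ARFs, 6 were higher and 1 lower (median 0.51 on the log2 scale). IAA1 was at 7.70, 8.62 and 7.76 RPKM in Col-0 and at 17.4, 19.2 and 21.1 RPKM in the RNAi line, and IAA19 rose 1.92-fold (limma adjusted p = 0.00024 and 0.000987). In IAA1, IAA2, ATAUX2-11 (IAA4) and IAA19, RNAi replicate 1 was the lowest and replicate 3 the highest of the RNAi libraries, as for GH3.5 and GH3.6. The same order held in SHY2 and IAA14, which were not called, and in IAA6, which was lower. IAA29, called higher, was highest in RNAi replicate 1 and lowest in replicate 2. IAA5 rose from 0.633 ± 0.191 to 3.99 ± 0.803 RPKM and was highest in RNAi replicate 1, as GH3.3 was (limma adjusted p = 0.000403). IAA6 was lower, at 1.51 ± 0.227 against 0.563 ± 0.352 RPKM (limma adjusted p = 0.0129). IAA5 passed the filter through its RNAi values and IAA6 through its Col-0 values. Without any 1 of the Col-0 replicates IAA6 fell below the filter and was not tested, and without RNAi replicate 3 the lower count was 2.

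**Figure D5:**
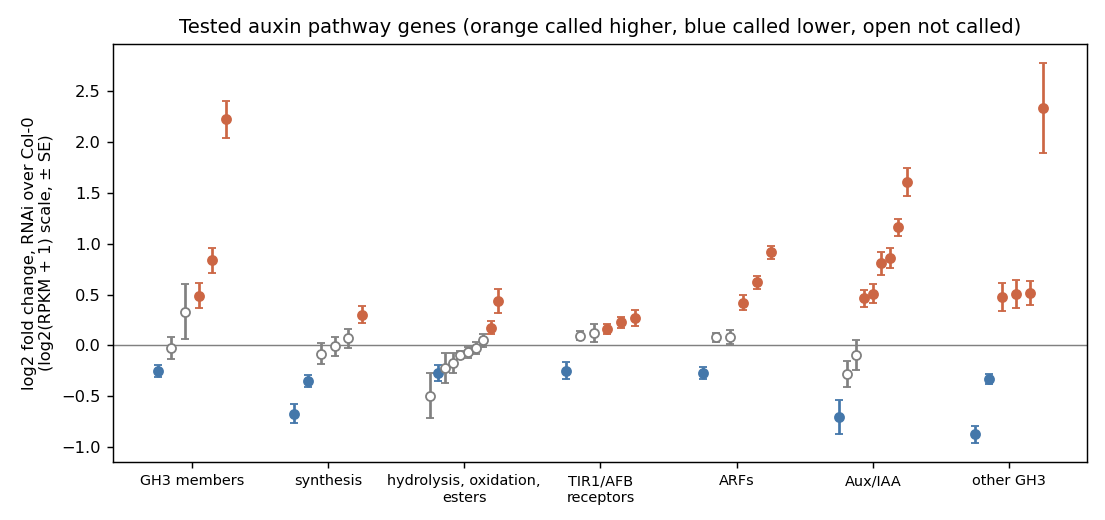
Log2 fold change, RNAi over Col-0 on the log2(RPKM + 1) scale ± SE (y axis), of each tested gene in the GH3 set and in 6 lists of auxin genes (x axis), sorted within a list. Orange points were called higher, blue points lower and open points neither. GH3.3, at 2.23, and AT1G48660, at 2.33, are the highest points, and the medians of the synthesis and hydrolysis lists are -0.04 and -0.08.

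Markers of the tissues in a whole seedling also differed between the groups. The 7 tested genes of green tissue (Rubisco small subunits, Rubisco activase and light-harvesting proteins) were lower, summing to between 36330 and 38830 RPKM in Col-0 and between 17410 and 25970 in the RNAi line. Only 2 of these calls were made without Col-0 replicate 1, Col-0 replicate 2 or RNAi replicate 2, and 3 without Col-0 replicate 3. With quantile normalization 0 were lower, 4 of the 7 had a positive log2 fold change, and RCA, Rubisco activase, was called higher (0.36, limma adjusted p = 0.0173). The 3 tested KNOX genes of the shoot meristem were higher, of which KNAT2 passed the filter through its RNAi values. The 5 meristem markers summed to between 6.06 and 7.87 RPKM in Col-0 and between 34.3 and 47.0 in the RNAi line, and CLV3 and WUS stayed below 1 RPKM. Of 9 tested root markers, 1 was higher (3 without RNAi replicate 3) and 3 lower, and the list of 13 summed to between 183 and 220.5 RPKM in Col-0 and between 152 and 166 in the RNAi line. The 4 tested seed storage and oil body genes were higher, but each passed the filter through its RNAi values, so their count is set by the filter. The 5 genes of the list had sums of at most 1.47 RPKM in Col-0 and of 105, 21.9 and 16.8 RPKM in RNAi replicates 1 to 3. Without Col-0 replicate 1 or without Col-0 replicate 3, all 5 genes of the list were tested and 2 were called. Less of a tissue and less RNA per cell cannot be told apart in whole seedlings, and the part of these marker differences in the GH3 values was not tested.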

How the data were processed

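RNA of 3 Col-0 and 3 sqtl1 RNAi whole-seedling samples was analysed. Per the submitters' processing notes, Trimmomatic 0.39, Bowtie2 2.2.6 and the build TAIR10 were used; no source used here gives the counting tool, the gene set or the use of strand. The kit marked strand, per the labels' protocols. The authors deposited RPKM to 2 decimals, a gene length and a multiple-mapping fraction per gene, per the file headers. Of 38199 lines, 5 named no gene and were left out.

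Depth was estimated from the steps of low values in genes under 0.4 kb: between 88.1% and 91.5% lay on a step within 0.0055 RPKM. It ranged from 75.9 to 99.8 M counted units per library; a unit may be a read or part of a read pair. No 2 libraries of a group agreed within sampling noise (chi-square per degree of freedom from 7.60 to 165.3).

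Log2(RPKM + 1) values were tested in R 4.3.3 by limma 3.58.1, with a variance prior that follows mean expression and no covariate. A check on simulated data used independent replicates and the same spread for all genes of a group. It therefore cannot show how the test behaves under the replicate order that many genes share in the RNAi libraries. Named are all 8 GH3 genes, up to 4 called genes per list by size of change with other list genes chosen after their values were seen, and for GH3.17 (highest mean) and GH3.3 (largest change) the 3 most correlated genes. The members and lists were chosen with earlier results of these data known. All 89 list entries and all 8 members were found in the RefSeq table of TAIR10.1, the source of symbols, coordinates and sequences. Coding sequences were aligned with Biopython 1.88. Alternatives were other pseudocounts, filters and scalings, no variance trend, a replicate block and leaving out each library.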

Additional observations from a re-analysis of the deposited data

How the results depend on the processing

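GH3.3 and GH3.5 kept their direction and their call under all 14 alternatives, with log2 fold changes from 1.63 to 2.44 and from 0.68 to 0.99. GH3.6 kept its direction, from 0.39 to 0.65. Its call was lost with no filter on low values (0.49) and without Col-0 replicate 2, Col-0 replicate 3 or RNAi replicate 2. Leaving out 1 library moved GH3.6 between 0.39 and 0.62, GH3.17 between -0.28 and -0.21, GH3.2 between 0.11 and 0.66 and GH3.1 between -0.12 and 0.06. The call of GH3.17 was lost without Col-0 replicate 3. With equal sums of RPKM times length, GH3.17 was at -0.093 and not called, GH3.1 was at 0.062, against -0.02 as reported, and 0 GH3 genes were lower. The sign of GH3.1 also turned when Col-0 replicate 3 (0.056) or RNAi replicate 2 (0.019) was left out. With 1 library left out, between 2 and 4 GH3 genes were higher and between 0 and 1 lower. Over the whole table, equal sums gave 7741 higher and 3505 lower genes, against 4894 and 5346, and leaving out 1 library gave between 3515 and 5515 higher and between 3975 and 6061 lower. The mean of the summed GH3 level was 73.6 RPKM (Col-0) and 121.4 RPKM (RNAi) with equal sums, and 47.2 and 89.0 without GH3.17. The deposited sums of RPKM times length were between 1051600 and 1071469 in the Col-0 libraries and between 926820 and 979309 in the RNAi libraries. Equal sums therefore raise RNAi values relative to Col-0 values. Why the deposited sums differ was not tested, nor was the cause of the other shifts. Same-numbered libraries did not deviate together (r = -0.064, 0.093 and 0.02), and a replicate block left the GH3 counts at 3 higher and 1 lower, with 4272 higher and 4762 lower genes in all. With 1 library left out, between 1 and 4 receptor genes were higher. The 7 lower green tissue genes were 2 under the block and 0 with quantile normalization, where 1 was higher. They were also 0 with no filter, where the SE of CAB3 rose from 0.253 to 0.558 and its log2 fold change stayed at -1.33. The 6 higher Aux/IAA genes and 3 higher ARF genes stayed 6 and 3 in number with any 1 library left out, whereas equal sums gave 5 higher and 0 lower ARF genes and 1 lower gene among the other GH3 genes, against 2. Estimated counts were lowest for GH3.4, at 0, for GH3.9, between 153 and 267 units per library, and for GH3.1, between 164 and 280.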
